A study of Mus musculus with 20 samples.

Results

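Branched-chain amino acid breakdown was followed through 10 of the 33119 genes in the deposited table of gene counts. The members were chosen by name for their place in the pathway: Bcat1, Bcat2, Bckdha, Bckdhb, Dbt, Bckdk, Ppm1k, Ivd, Mccc1 and Mccc2. Counts had been measured in the hippocampus of 20 mice aged 16 months, 5 in each of 4 groups. The hAPOE3 mice were 5 females (S144 to S148) with 5 males (S154 to S158), and hAPOE4 mice likewise 5 females (S164 to S168) with 5 males (S174 to S178). All mice were homozygous targeted replacement animals of C57BL/6 background, in which human APOE3 or APOE4 takes the place of mouse Apoe under the mouse gene's own regulatory sequences. All 4 groups therefore lack the intact mouse gene, and a group that keeps mouse Apoe is not part of the comparison. The tissue was whole hippocampus from perfused brains, so a lower count can reflect fewer cells of a type or less RNA per cell, and these cannot be told apart.

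Leucine, isoleucine and valine are broken down by a shared route, mostly in mitochondria. A branched-chain aminotransferase, in the cytosol or in mitochondria, first moves the amino group to 2-oxoglutarate, which yields glutamate and a branched-chain keto acid. The branched-chain keto acid dehydrogenase complex then removes carbon dioxide in a step that cannot be reversed, and a kinase and a phosphatase set its activity by adding or removing phosphate on its E1 alpha subunit. In brain, this nitrogen transfer is known as a source of glutamate.

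Counts summed to between 35778879 and 52520279 per mouse, and the members had between 500 and 7562 counts in a mouse. Marker genes of neurons, astrocytes, oligodendrocytes and microglia were read in all 20 mice, with summed levels of at least 6803, 3828, 4421 and 399 CPM (counts scaled by library size), and markers of endothelium at 252 to 358 CPM. Of these 5 lists of 10 genes, none held a gene past the threshold in any of the 7 comparisons, although up to 4 oligodendrocyte markers had an unadjusted p below 0.05 in a comparison, 3 microglial, 2 endothelial, 1 neuronal and 0 astrocyte markers. The summed level of 12 choroid plexus markers ran from 266 to 9588 CPM among mice, with 0 past the threshold and up to 8 at an unadjusted p below 0.05. The 10 oligodendrocyte markers summed to 13717 CPM in S158 and 10123 CPM in S176, against 4421 to 6714 CPM in the other mice. The summed level of 18 oocyte genes was 87.7 to 176.1 CPM in the hAPOE4 males S175 to S178 and 4.21 to 6.94 CPM in the other 16 mice, and up to 7 of the 10 that could be tested passed the threshold in a comparison. A score of 54 nuclear oxidative phosphorylation genes (mean centred log2 CPM) was 0.28 to 0.44 in the hAPOE3 females S147 and S148 with the hAPOE3 males S156, S157 and S158, and -0.35 to 0.04 in the other 15, with 0 genes past the threshold and up to 12 at an unadjusted p below 0.05. Mouse Apoe was read at 37.4 to 98.9 CPM in the 20 mice and did not pass the threshold in any comparison, with a log2 difference between hAPOE4 and hAPOE3 mice of 0.25 (SE 0.12, adjusted p = 0.253, edgeR quasi-likelihood test). Since the mouse gene is replaced in all 4 groups, this row checks no label.

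The members lie on 6 chromosomes of GRCm38. Bckdha is on chr7:25629946-25658981, 5.93 Mb from Apoe, with Bcat2 (chr7:45570153-45589711) and Bckdk (chr7:127904082-127910221) on the same chromosome, 25.9 and 108 Mb from Apoe. Bcat1 (chr6:144993835-145076184) and Ppm1k (chr6:57506502-57535468) share chromosome 6, and Dbt (chr3:116513070-116549981) and Mccc1 (chr3:35959312-36000678) share chromosome 3. Ivd is on chr2:118861954-118882909, Bckdhb on chr9:83925145-84124240 and Mccc2 on chr13:99948530-100015639. Of the exon bases of Bckdha, 61.7% are also exon of B3gnt8 on the opposite strand, and 15.9% of those of Bcat2 are exon of the antisense gene 0610005C13Rik. Whether the counting used strand is not given in the sources used here, so reads of Bckdha and Bcat2 that fall in these bases cannot be told apart from reads of the partner and the 2 counts are uncertain. The other members shared at most 3.62% of their exon bases with another gene.

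Bckdha and Bckdk, the E1 alpha subunit and the kinase that acts on it, were the pair of partners whose counts ran most closely together over the mice (r = 0.87), and their promoters are shown for that reason. With library-wide slopes regressed out (described further on), r was -0.13 in 15 mice. A part of the promoters in this relation was not tested. Each runs from 250 bases before to 50 bases after the start site in RefSeq for GRCm38.p6, 5′ to 3′ on the gene's strand, chr7:25658712-25659011 (minus strand) for Bckdha and chr7:127903823-127904122 (plus strand) for Bckdk. Capitals mark matches to a list of motifs searched on both strands.
Bckdha: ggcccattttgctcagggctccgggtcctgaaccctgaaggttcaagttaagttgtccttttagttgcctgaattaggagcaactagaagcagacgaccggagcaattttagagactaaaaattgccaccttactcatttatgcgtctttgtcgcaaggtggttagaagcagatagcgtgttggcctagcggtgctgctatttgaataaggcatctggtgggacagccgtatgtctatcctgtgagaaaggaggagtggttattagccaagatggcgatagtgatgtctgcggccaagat
Bckdk: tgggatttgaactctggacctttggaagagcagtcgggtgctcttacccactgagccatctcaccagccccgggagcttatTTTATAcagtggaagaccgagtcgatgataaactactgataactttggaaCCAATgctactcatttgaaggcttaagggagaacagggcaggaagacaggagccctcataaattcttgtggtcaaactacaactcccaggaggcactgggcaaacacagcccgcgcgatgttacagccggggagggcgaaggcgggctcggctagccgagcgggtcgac
The motifs were the GC box GGGCGG, the CCAAT box CCAAT, the ETS site CCGGAAG, the TATA box TATAAA, the ERR half-site AAGGTCA and the E-box CACGTG. The Bckdha window held none of these letters. The Bckdk window held 1 CCAAT and 1 TATAAA on the opposite strand (TTTATA), motifs found in 37.4% and 13.6% of the 32851 promoters of that length. GC boxes were in 35.7% of all promoters, ETS sites in 8.86%, ERR half-sites in 4.72% and E-boxes in 7.15%. Bckdha had 10 CpG in its window and Bckdk 14, against a median of 7 over all promoters.

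Per kilobase of its longest transcript, Ivd had the highest level of the members, with a median of 27.6 CPM per kb over the 20 mice (range 24.6 to 33.8). Ivd encodes isovaleryl-CoA dehydrogenase, the first enzyme that serves leucine alone after the shared complex, and its level was above that of Bckdhb, the next gene, in 20 of 20 mice. Bckdhb (median 15.1), Bckdha (13.4), Ppm1k (13.4) and Mccc1 (13.1 CPM per kb) followed within overlapping ranges, and neighbours among these 4 kept their order in only 10 to 14 of 20 mice. Bcat1 had a median of 11.7 CPM per kb and was above Mccc2 in 20 of 20 mice. Mccc2 (8.50), Bckdk (7.94), Dbt (7.76) and Bcat2 (7.10 CPM per kb) were lowest, with neighbours in the same order in 10 to 15 of 20 mice. The order of levels depends on the length chosen, since over the union of all annotated exons Mccc1 moved from rank 5 to rank 10.

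**Figure D1:**
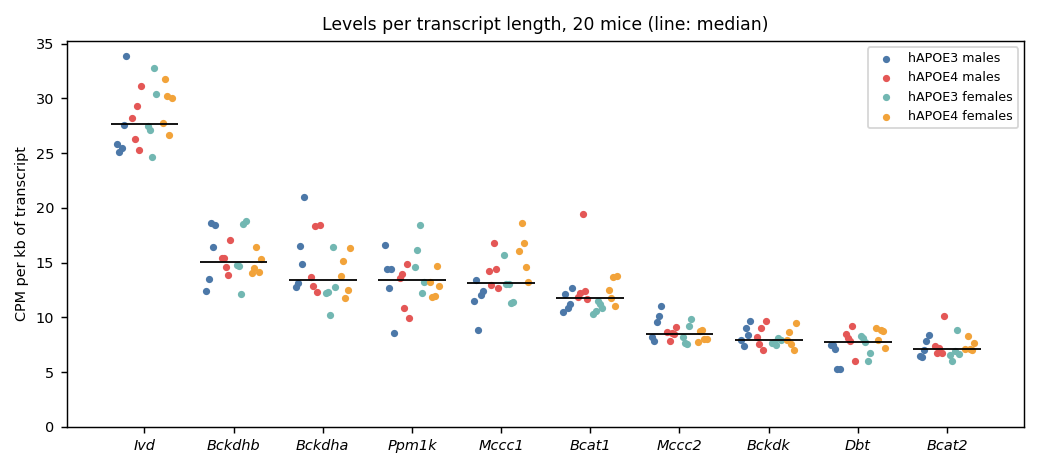
Level of each member per transcript length (CPM per kb of the longest transcript, vertical axis) in each of 20 mice, coloured by group, with the median over mice as a line. Ivd stood above all others at a median of 27.6 CPM per kb, and the remaining members had medians from 7.10 to 15.1.

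To test whether APOE genotype was associated with the level of these genes, hAPOE4 and hAPOE3 mice were compared in each sex and over both sexes, in a single fit to all tested genes. In the mean of both sexes, the largest differences were higher levels in hAPOE4 mice of Mccc1 (log2 0.30, SE 0.08), Dbt (0.23, SE 0.09) and Bcat1 (0.22, SE 0.08), and none passed the threshold of adjusted p below 0.05. All 10 members passed the filter on low counts. The edgeR quasi-likelihood test called 0 of 10 members in males, where 0.621% of all 21724 genes tested were called, 0 of 10 in females (0.667% of all genes) and 0 of 10 in the mean of both sexes (2.45%). At an unadjusted p below 0.05 there were 2 members in males (9.06% of all genes), 1 in females (10.1%) and 3 in the mean of both sexes (17.9%). A Wald test of DESeq2 called 0 members in males, 0 in females and 1, Mccc1, in the mean of both sexes, and limma on the authors' normalized counts called 0 in each. In males 5 of 10 members were above 0 and in females 7, against 50.3% of all genes in each. In the mean of both sexes 7 were above 0 (50.3% of all genes), with a median log2 difference of 0.03 against 0.00 for all genes tested. In no member did the groups separate without overlap, in males (1.44% of all genes), in females (3.27%) or with both sexes together (0.290%).

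**Figure D2:**
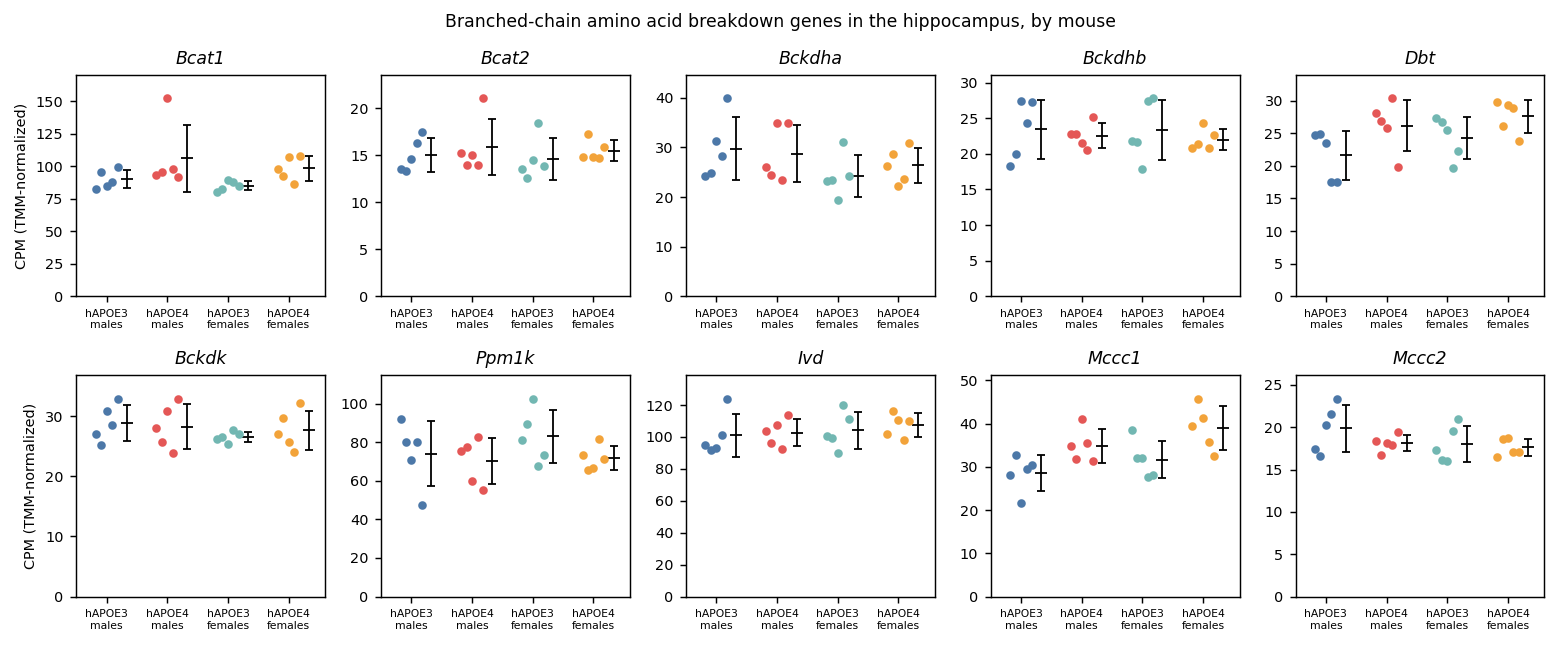
TMM-normalized CPM (vertical axis from 0) of the 10 members in each mouse, with a point per mouse, and the mean and SD of each group of 5 as a tick and error bar beside the points. Mccc1 was at 31.2 to 41.1 CPM in hAPOE4 males and 21.7 to 32.8 CPM in hAPOE3 males, and the groups overlapped for every member.

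Mccc1 and Mccc2 encode the biotin-carrying and the other subunit of methylcrotonyl-CoA carboxylase, a later step of leucine breakdown. Mccc1 was read at 28.1, 32.8, 21.7, 29.6 and 30.5 CPM in hAPOE3 males and at 34.9, 31.7, 41.1, 35.5 and 31.2 CPM in hAPOE4 males. In females it was at 38.4, 32.0, 31.9, 27.8 and 28.0 CPM in hAPOE3 mice and at 39.5, 45.8, 41.3, 35.8 and 32.4 CPM in hAPOE4 mice. All 5 hAPOE4 mice of each sex were above the hAPOE3 mean of that sex, and 3 of 5 in each sex were above every hAPOE3 mouse. The log2 difference was 0.29 in males (SE 0.12, unadjusted p = 0.0243, adjusted p = 0.471) and 0.30 in females (SE 0.12, unadjusted p = 0.0198, adjusted p = 0.36), and 0.30 over both sexes (95% interval 0.12 to 0.47, adjusted p = 0.0638, edgeR quasi-likelihood test). This value lay near the threshold and crossed it with the choice of test or library. Mccc1 passed with DESeq2 (0.30, adjusted p = 0.0289), without the hAPOE3 female S144 (0.34, adjusted p = 0.0283) or without the hAPOE3 male S155 (0.32, adjusted p = 0.0447), and had a value of 0.14 (adjusted p = 0.374) in limma on the authors' normalized counts. Without the 5 hAPOE3 mice with high nuclear oxidative phosphorylation scores it was 0.19 (adjusted p = 0.351), and with the GC and length slopes of the libraries (described further on) as covariates 0.19 (adjusted p = 0.275). The length slope was lowest in those 5 hAPOE3 mice, so the fit with slopes cannot fully separate it from genotype. In the authors' normalized counts Mccc1 had been divided by a factor, taken relative to the mouse's median factor over genes. This factor averaged 0.951 in hAPOE3 and 1.06 in hAPOE4 mice. Mccc1 was highest in the hAPOE3 female S144, the hAPOE4 females S164, S165 and S166 and the hAPOE4 male S176. These 5 mice also had the highest choroid plexus scores (mean centred log2 CPM of the markers), 1.88 to 2.87 against at most 1.46 in the others. With that score as a covariate Mccc1 did not pass the threshold in any comparison.

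Mccc2, the partner subunit, was at 17.4, 16.6, 20.3, 21.6 and 23.4 CPM in hAPOE3 males and 18.4, 16.7, 18.1, 17.9 and 19.4 CPM in hAPOE4 males. The hAPOE3 females had 17.3, 16.2, 16.0, 19.5 and 21.0 CPM, and the hAPOE4 females 16.5, 18.6, 18.8, 17.1 and 17.1 CPM. The hAPOE4 mice of both sexes thus lay inside the range of the hAPOE3 mice, with a log2 difference of -0.08 over both sexes (95% interval -0.23 to 0.06, adjusted p = 0.572). The 5 highest values were those of the 5 hAPOE3 mice with high nuclear oxidative phosphorylation scores. Between these mice and the other 5 hAPOE3 mice, 3 of 10 members (Bckdhb, Dbt and Mccc2) did not overlap in CPM, against 21.5% of all genes tested. On the authors' normalized counts 6 of 10 members did not overlap, Dbt not among them, against 20.7% of all genes. Without these 5 mice the log2 difference of Mccc2 over both sexes was 0.09 (adjusted p = 0.501), and with the score as a covariate it was -0.02 (adjusted p = 0.899). In limma on the authors' normalized counts it was -0.23 (adjusted p = 0.267), the lowest of the alternatives. The authors' factor for Mccc2, relative to the mouse's median factor, averaged 0.952 in hAPOE3 and 1.06 in hAPOE4 mice. Among males Ivd was at 101 ± 13.3 CPM in hAPOE3 and 103 ± 8.53 in hAPOE4 mice, and among females at 104 ± 11.6 and 107 ± 7.51 CPM (SD, n = 5 each). Its log2 difference between genotypes was 0.03 over both sexes (95% interval -0.11 to 0.17, adjusted p = 0.835), and 0.14 (adjusted p = 0.279) without those 5 mice.

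Of the 2 aminotransferases, Bcat1 encodes the cytosolic and Bcat2 the mitochondrial enzyme. Bcat1 was at 82.3, 95.4, 84.8, 88.1 and 99.1 CPM in hAPOE3 males and at 93.2, 95.6, 152, 97.4 and 91.3 CPM in hAPOE4 males. It was at 80.4, 82.7, 89.7, 87.5 and 85.0 CPM in hAPOE3 females and at 97.6, 92.5, 107, 86.1 and 108 CPM in hAPOE4 females. All 10 hAPOE4 mice were above the hAPOE3 mean of their sex, and 4 of 5 hAPOE4 females were above every hAPOE3 female. Over both sexes the log2 difference was 0.22 (95% interval 0.05 to 0.39, unadjusted p = 0.0135, adjusted p = 0.158). In males it was 0.24 (adjusted p = 0.557) and dropped to 0.07 (adjusted p = 0.814) without the hAPOE4 male S176, which had the highest Bcat1, the second highest summed oligodendrocyte markers and oocyte transcripts. Over both sexes it was 0.14 (adjusted p = 0.209) without S176. With the oocyte score as a covariate it was 0.09 in males (adjusted p = 0.921) and 0.15 over both sexes (adjusted p = 0.61). That score was high only in the hAPOE4 males S175 to S178, so this fit cannot separate it from that group except through S174. The part of the oligodendrocyte markers was not tested. Without the 5 hAPOE3 mice with high nuclear oxidative phosphorylation scores Bcat1 over both sexes was at 0.23 (adjusted p = 0.334). Bcat2 in males was at 15.04 ± 1.82 CPM in hAPOE3 and 15.9 ± 2.97 in hAPOE4 mice, and in females at 14.6 ± 2.25 and 15.5 ± 1.10 CPM (SD, n = 5 each). Its log2 difference over both sexes was 0.08 (95% interval -0.10 to 0.27, adjusted p = 0.658), 0.21 (adjusted p = 0.284) without those 5 mice and 0.02 (adjusted p = 0.942) in limma on the authors' normalized counts.

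The branched-chain keto acid dehydrogenase complex is built from E1 alpha (Bckdha), E1 beta (Bckdhb) and the E2 core (Dbt, dihydrolipoamide branched-chain transacylase). Dbt was at 24.7, 24.8, 23.6, 17.5 and 17.5 CPM in hAPOE3 males and at 28.1, 26.8, 25.8, 30.4 and 19.8 CPM in hAPOE4 males. In females it was at 27.4, 26.7, 25.5, 19.7 and 22.2 CPM in hAPOE3 mice and at 29.8, 26.2, 29.3, 28.8 and 23.9 CPM in hAPOE4 mice. In males 4 of 5 hAPOE4 mice, and in females 3 of 5, were above every hAPOE3 mouse of that sex, while S178 among males and S165 and S168 among females were not. The log2 difference was 0.28 in males (unadjusted p = 0.0436, adjusted p = 0.533), 0.18 in females (adjusted p = 0.695) and 0.23 over both sexes (95% interval 0.04 to 0.42, adjusted p = 0.186). The 5 lowest hAPOE3 values of Dbt were those of the 5 hAPOE3 mice with high nuclear oxidative phosphorylation scores. Such a separation from the other hAPOE3 mice, in either direction, was seen in 21.5% of all genes tested. On the authors' normalized counts Dbt overlapped, at 707 to 1050 in these mice and 1044 to 1240 in the other hAPOE3 mice. Without these 5 mice the log2 difference over both sexes was 0.07 (adjusted p = 0.753). With the GC and length slopes as covariates the edgeR test gave an adjusted p of 0.0503 over both sexes, the lowest of the alternatives. In females the log2 difference was then 0.25 (adjusted p = 0.125). The length slope was lowest in those 5 hAPOE3 mice, so this fit cannot fully separate it from genotype.

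Bckdha, whose promoter is printed above, was at 24.3, 24.9, 31.3, 28.3 and 39.9 CPM in hAPOE3 males and at 26.1, 24.4, 34.9, 23.4 and 35.0 CPM in hAPOE4 males. It was at 23.3, 23.4, 19.4, 31.2 and 24.2 CPM in hAPOE3 females and at 26.2, 28.7, 22.3, 23.7 and 30.9 CPM in hAPOE4 females. The spread within each group was wider than the difference between genotypes, which was -0.05 in males, 0.12 in females and 0.03 over both sexes on the log2 scale (95% interval -0.19 to 0.26, adjusted p = 0.899). Without the 5 hAPOE3 mice with high scores it was 0.22 in males (adjusted p = 0.845) and 0.24 over both sexes (adjusted p = 0.312). In that fit S154 and S155 were the only hAPOE3 males. For Bckdhb the males had 23.4 ± 4.17 CPM with hAPOE3 and 22.6 ± 1.73 with hAPOE4, and the females 23.3 ± 4.19 and 22.0 ± 1.51 CPM (SD, n = 5 each). Its log2 difference over both sexes was -0.07 (95% interval -0.25 to 0.11, adjusted p = 0.712). Without the same 5 mice it was 0.17 (adjusted p = 0.264), above the upper end of that interval.

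Bckdk encodes the kinase that switches the complex off, and Ppm1k the mitochondrial phosphatase that switches it on. Bckdk in hAPOE3 mice was at 27.1, 25.1, 30.8, 28.6 and 32.8 CPM among males and at 26.2, 26.5, 25.4, 27.6 and 27.0 CPM among females. In hAPOE4 mice it was at 28.1, 25.7, 30.8, 23.8 and 32.9 CPM among males and at 27.0, 29.6, 25.6, 23.95 and 32.1 CPM among females. These ranges overlapped throughout, the hAPOE3 females were the narrowest group (26.5 ± 0.821 CPM, SD, n = 5), and the genotypes differed by a log2 value of 0.01 over both sexes (95% interval -0.13 to 0.16, adjusted p = 0.935), or 0.10 (adjusted p = 0.592) without the 5 hAPOE3 mice with high scores. Ppm1k was at 92.2, 80.02, 70.7, 80.4 and 47.6 CPM in hAPOE3 males and at 75.4, 77.6, 60.1, 82.5 and 55.1 CPM in hAPOE4 males. In females it was at 81.4, 89.7, 103, 67.8 and 73.6 CPM in hAPOE3 mice and at 73.4, 65.9, 66.6, 81.6 and 71.3 CPM in hAPOE4 mice. The lowest value was that of S158, and the groups overlapped in both sexes. The log2 difference was -0.08 in males, -0.21 in females and -0.14 over both sexes (95% interval -0.37 to 0.08, adjusted p = 0.498), or -0.32 (adjusted p = 0.126) without those 5 mice.

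**Figure D3:**
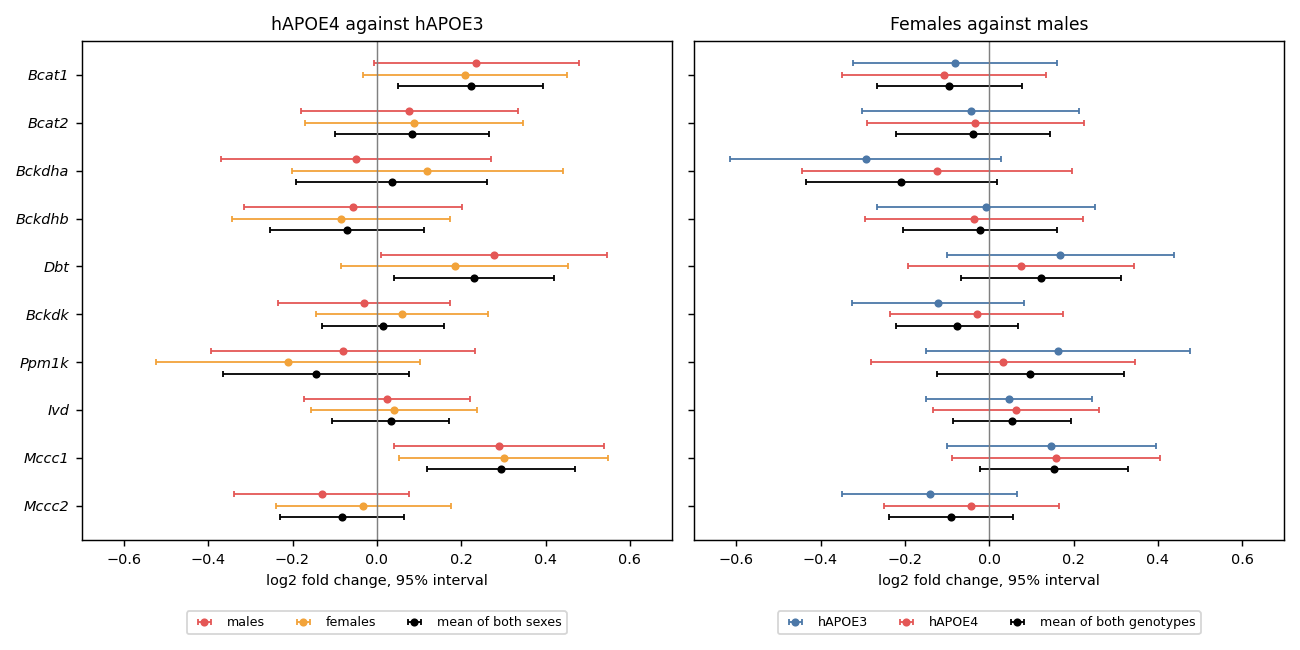
Log2 fold change (horizontal axis) of each member with its 95% interval from the edgeR quasi-likelihood fit, for hAPOE4 against hAPOE3 on the left and females against males on the right. The interval of Mccc1, Dbt and Bcat1 lay above 0 in the genotype comparison over both sexes, and every interval of the sex comparisons included 0.

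To test for sex differences, females were compared with males within each genotype and over both genotypes. No member passed the threshold: 0 of 10 in hAPOE3 mice (0.0414% of all genes tested), 0 of 10 in hAPOE4 mice (0.437%) and 0 of 10 over both genotypes (0.129%), by edgeR and by DESeq2. At an unadjusted p below 0.05 there were 0 members in each of these 3 comparisons by both tools, where 5.22%, 5.8% and 10% of all genes had such a p in edgeR. Above 0 were 4 of 10 members in hAPOE3 mice (50.5% of all genes), 4 in hAPOE4 mice (47.3%) and 4 over both genotypes (48.8%). The largest difference over both genotypes was that of Bckdha, at 25.3 CPM in females and 29.2 CPM in males (log2 -0.21, SE 0.11, 95% interval -0.44 to 0.02, adjusted p = 0.545). With the GC and length slopes of the libraries as covariates it was -0.03 (adjusted p = 0.891), and in hAPOE3 mice alone -0.00 (adjusted p = 0.993) against -0.29 (adjusted p = 0.805) without them. With the choroid plexus score as a covariate in edgeR it was -0.30 over both genotypes (adjusted p = 0.178), the lowest of the alternatives. Mccc1 was higher in females than in males by a log2 value of 0.15 (95% interval -0.02 to 0.33, adjusted p = 0.564). With the choroid plexus score as a covariate this value was 0.06. The groups overlapped for all members in hAPOE3 (0.723% of all genes did not overlap), in hAPOE4 (0.723%) and over both genotypes (0.0368%). The 4 comparisons between groups share groups with each other, so their values are not independent.

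The interaction of sex and APOE, which asks whether the genotype difference differed between the sexes, was called for 0 of 10 members by edgeR and by DESeq2 (0.184% of all genes by edgeR), with 0 members at an unadjusted p below 0.05 (2.54% of all genes). Of the members 6 were above 0, against 49.8% of all genes. The estimates ran from -0.13 for Ppm1k to 0.17 for Bckdha on the log2 scale, and the widest 95% interval, that of Bckdha, was -0.29 to 0.62.

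Ratios within a mouse do not depend on the scaling of its library, so 3 pairs of enzymes with paired roles were set against each other. They are not free of other library-wide properties. Bckdk rose and Ppm1k fell with the GC slope of the library (described further on). The Mccc1/Mccc2 ratio of counts was 1.62, 1.97, 1.07, 1.37 and 1.30 in hAPOE3 males and 1.89, 1.90, 2.27, 1.98 and 1.61 in hAPOE4 males. It was 2.22, 1.98, 1.99, 1.42 and 1.34 in hAPOE3 females and 2.39, 2.45, 2.20, 2.10 and 1.90 in hAPOE4 females. The highest hAPOE3 mouse of each sex lay above at least 2 hAPOE4 mice, so the groups overlapped in both sexes. The 5 lowest ratios of all 20 mice, 1.07 to 1.42, were those of the 5 hAPOE3 mice with high nuclear oxidative phosphorylation scores. The log2 ratio differed by 0.42 in males (two-sided exact permutation p = 0.0635) and by 0.33 in females (exact p = 0.0794), both 0.349 after Benjamini-Hochberg adjustment over the 12 tests of 3 ratios in 4 comparisons. The smallest p that 5 against 5 mice allow is 0.00794, or 0.0952 after adjustment if a single test reached it. The Bckdk/Ppm1k ratio ran from 0.248 to 0.689 over all mice and did not differ beyond the spread, with log2 differences between genotypes of 0.03 in males (exact p = 0.921) and 0.25 in females (exact p = 0.167). The Bcat1/Bcat2 ratio ran from 4.33 in S178 to 10.1 in S176, both hAPOE4 males, with log2 differences between genotypes of 0.14 in males (exact p = 0.563) and 0.11 in females (exact p = 0.389). Between the sexes, the smallest p was that of Mccc1/Mccc2 in hAPOE4 mice (log2 difference 0.20, exact p = 0.0873, adjusted p = 0.349).

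**Figure D4:**
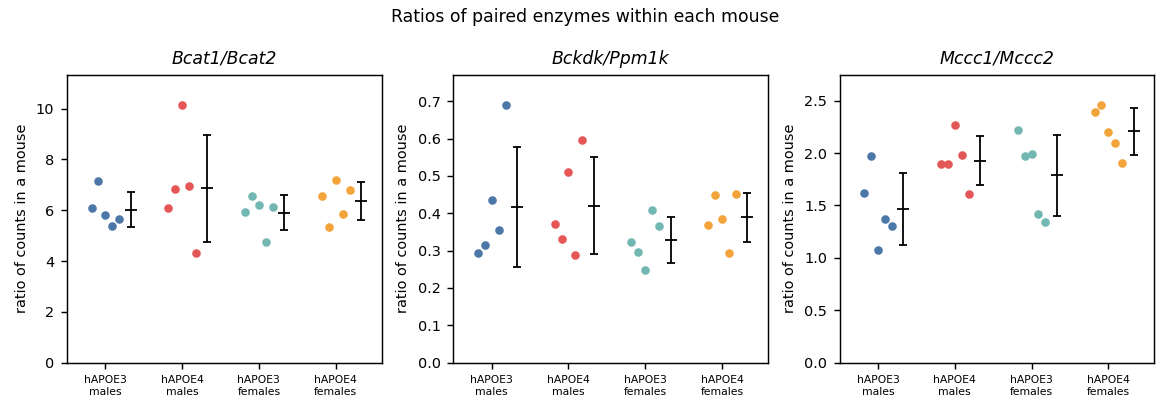
Ratio of the counts of 2 members in each mouse (vertical axis from 0), with a point per mouse and a tick and error bar for the mean and SD of each group of 5. Bcat1/Bcat2 reached 10.1 in 1 hAPOE4 male, and the Mccc1/Mccc2 ratio was 1.61 to 2.27 in hAPOE4 males and 1.07 to 1.97 in hAPOE3 males.

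Partners in the pathway were then compared over mice, and those of the complex did not vary together in a single direction. Over the 20 mice the log2 CPM of Bckdha rose with that of its kinase Bckdk (Pearson r = 0.87, Spearman rho = 0.86, permutation p = 2e-05 and 1e-05, adjusted p = 0.00012 over 6 pairs). The relation was present after group means were removed (r = 0.87), in the 10 hAPOE3 mice (r = 0.89), in the 10 hAPOE4 mice (r = 0.92) and without the 2 mice farthest from the median of Bckdha (r = 0.81). Of 15910 genes, 0.968% had an r with Bckdha at least as high as Bckdk. Bckdha fell with Dbt of the same complex (r = -0.63, rho = -0.59, permutation p = 0.00297 and 0.00741, adjusted p = 0.00594), also without the 2 farthest mice (r = -0.42), and 10.8% of genes had an r at least as low. Bckdk fell with the opposing phosphatase Ppm1k (r = -0.72, rho = -0.70, permutation p = 0.00017 and 0.00087, adjusted p = 0.00051, r = -0.55 without the 2 farthest mice). Bckdha and Bckdhb had r = 0.57 (rho = 0.43, permutation p = 0.00861 and 0.0586, adjusted p = 0.0129), and r was 0.45 without the 2 farthest mice. Mccc1 with Mccc2 (r = -0.36, rho = -0.39, adjusted p = 0.151) and Bcat1 with Bcat2 (r = 0.13, rho = 0.41, adjusted p = 0.569) showed no relation beyond permutation.

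Library-wide properties moved with several of these members. In each library the deviation of 15901 genes from their mean over mice was regressed on the GC content and the length of their transcripts, which gives a GC slope and a length slope for each mouse. The GC slope ran from -0.17 to 0.21 log2 per 10% GC over the 20 mice. Bckdha rose with it (r = 0.89, rho = 0.89, permutation p = 1e-05, the smallest that 100000 permutations can give, adjusted p = 5e-05 over 20 relations), and Bckdk did likewise (r = 0.86, rho = 0.85, adjusted p = 5e-05). Bcat2 (r = 0.77, rho = 0.81, adjusted p = 0.000333) and Ivd (r = 0.61, rho = 0.61, adjusted p = 0.01) also rose with the GC slope, and Ppm1k fell with it (r = -0.79, rho = -0.76, adjusted p = 0.0002). Without the 2 mice farthest from the median GC slope these r were 0.84, 0.78, 0.62, 0.46 and -0.65 in the same order. Bcat1 (r = 0.47, rho = 0.44, adjusted p = 0.0462) and Dbt (r = -0.50, rho = -0.44, adjusted p = 0.0433) also passed, with r = 0.58 and -0.23 without the 2 farthest mice. Mccc2 (r = 0.40, rho = 0.44, adjusted p = 0.0959), Bckdhb (r = 0.30, rho = 0.28, adjusted p = 0.215) and Mccc1 (r = 0.09, rho = -0.00, adjusted p = 0.716) did not. The transcripts of Bckdha and Bckdk are 57.9% and 52.7% GC, and those of Dbt and Ppm1k 42.1% and 39.9%. Across all genes ranked by transcript GC in 5 parts, the median r with Bckdha went from -0.46 in the lowest part over -0.23, 0.06 and 0.35 to 0.47 in the highest, a description across genes, which are not independent.

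The length slope separated the mice into 2 clusters, with the same 5 hAPOE3 mice named above for their oxidative phosphorylation score at -0.13 to -0.12 log2 per doubling of length and the other 15 at -0.05 to 0.08, so no relation over all 20 mice is given for it. Among the 15 mice, Bckdhb fell with the length slope (r = -0.72, rho = -0.60, permutation p = 0.00114 and 0.0202, adjusted p = 0.00456, r = -0.59 without the 2 farthest mice), as did Mccc2 (r = -0.59, rho = -0.60, permutation p = 0.0226 and 0.023, adjusted p = 0.0451, r = -0.62 without the 2 farthest). Bcat2 also fell with it (r = -0.69, rho = -0.47, permutation p = 0.0215 and 0.0807, adjusted p = 0.0451, r = -0.46 without the 2 farthest), and Ppm1k rose (r = 0.66, rho = 0.59, permutation p = 0.00978 and 0.0251, adjusted p = 0.0279, r = 0.56 without the 2 farthest). Mccc1 (r = 0.11, rho = 0.09, adjusted p = 0.723) and Dbt (r = 0.48, rho = 0.07, adjusted p = 0.132) did not pass there, nor did Bcat1, Bckdha, Bckdk and Ivd, with adjusted p of at least 0.0823. In the same 15 mice the relation of Bckdha and Bckdk held (r = 0.86, rho = 0.75, adjusted p = 0.00048), as did that of Bckdk and Ppm1k (r = -0.69, rho = -0.64, adjusted p = 0.0173), whereas Bckdha with Dbt (r = -0.55, rho = -0.42, adjusted p = 0.0815) and with Bckdhb (r = 0.50, rho = 0.27, adjusted p = 0.0815) did not pass. When both slopes were regressed out of each member within these 15 mice, r was -0.13 for Bckdha and Bckdk (rho = -0.26), 0.44 for Bckdk and Ppm1k (rho = 0.54), 0.16 for Bckdha and Dbt (rho = 0.06) and 0.17 for Bckdha and Bckdhb (rho = -0.00). It was 0.50 for Mccc1 and Mccc2 (rho = 0.53) and -0.34 for Bcat1 and Bcat2 (rho = -0.40), and by permutation the adjusted p was at least 0.294 for all 6 pairs. The slopes were estimated from the same libraries, and the members were not among the 15901 genes used for them.

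**Figure D5:**
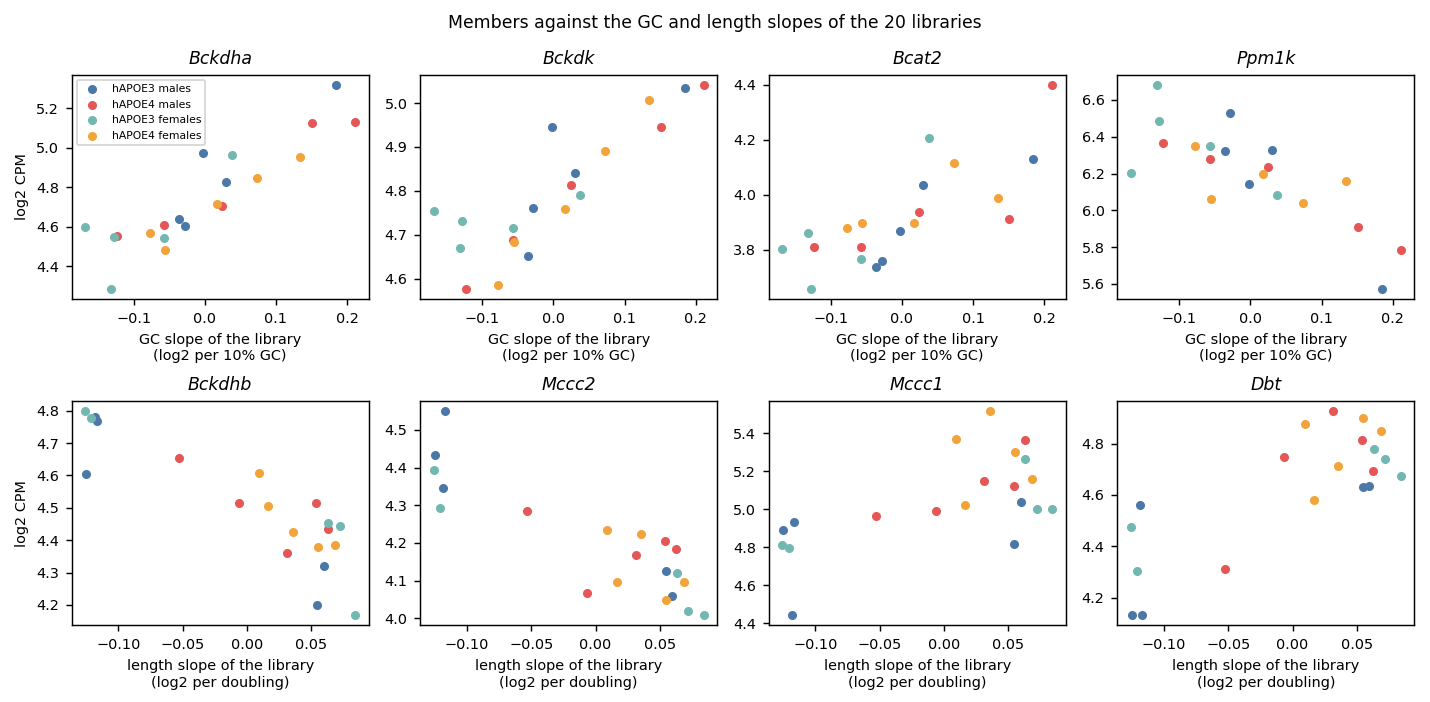
Log2 CPM (vertical axes) of 4 members against the GC slope of the library (upper row, log2 per 10% GC) and of the other 4 shown against the length slope (lower row, log2 per doubling of length), with a point per mouse coloured by group. Bckdha and Bckdk rose and Ppm1k fell with the GC slope, and the 5 hAPOE3 mice at a length slope of -0.13 to -0.12 formed a cluster of their own.

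The genes whose log2 CPM was most like that of a member over the 20 mice, among 16295 candidates, were Tubg1 for Bckdha (r = 0.97), Wrap53 for Bckdk (0.91), G3bp2 for Dbt (0.95), Vps25 for Bckdhb (0.93) and Slc39a9 for Mccc1 (0.92). These are descriptions over 20 libraries that share the slopes above. No member was the closest gene of another member. Ppm1k and Bckdha varied most within groups, with a pooled SD of 0.26 log2 each, at the 78.5th and 76.5th percentile of genes of similar level, and Ivd (SD 0.14) and Mccc2 (0.15) least.

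The rest of the pathway and its neighbours were read from lists of 57 genes. The listed genes comprised 16 further enzymes of branched-chain breakdown, 7 amino acid transporters, 5 enzymes of glutamate nitrogen, 13 subunits and regulators of the sister pyruvate and 2-oxoglutarate dehydrogenase complexes, 11 acyl-CoA dehydrogenases and electron transfer flavoprotein genes, and 5 enzymes that carry or attach biotin. Only Pdk4 passed the threshold in any of the 7 comparisons, in the genotype comparison over both sexes, so that 1 of the 57 genes was called there against 2.45% of all genes, and 11 of 57 (19.3%) had an unadjusted p below 0.05 against 17.9% of all genes. Pdk4, a kinase of the pyruvate dehydrogenase complex from the same kinase family as Bckdk, was at 10.4 to 20.04 CPM in the 10 hAPOE3 mice and 15.5 to 42.9 CPM in the 10 hAPOE4 mice, and all 10 hAPOE4 mice were above the hAPOE3 mean of their sex. It rose by 0.88 log2 in hAPOE4 mice (SE 0.18, adjusted p = 0.0124, edgeR quasi-likelihood test). The call was lost with the oocyte score as a covariate (0.82, adjusted p = 0.185), with the GC and length slopes as covariates (0.77, adjusted p = 0.0615) and without the 5 hAPOE3 mice with high oxidative phosphorylation scores (0.72, adjusted p = 0.188). The oocyte score was high only in the hAPOE4 males S175 to S178 and so nearly coincides with that group. The length slope was lowest in those 5 hAPOE3 mice and is not fully separated from genotype. The call was not made in males (0.94, adjusted p = 0.161) or in females (0.81, adjusted p = 0.197) alone.

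In the other lists no gene passed. Among the further enzymes of the breakdown route the smallest unadjusted p was that of Pcca, a subunit of propionyl-CoA carboxylase, in females (log2 0.24, adjusted p = 0.396), and 8 of 16 were higher in hAPOE4 mice over both sexes, 5 of 16 in males and 13 of 16 in females, where 50.3% of all genes were higher in each of these 3 comparisons. Among the transporters it was that of Slc43a2, which carries large neutral amino acids, with 6 of 7 higher over both sexes and a log2 difference of 0.22 (adjusted p = 0.103). Glul, glutamine synthetase, had a log2 difference of 0.20 (adjusted p = 0.0904), with 4 of 5 nitrogen enzymes higher. Acad11 in females (0.23, adjusted p = 0.236) stood for the acyl-CoA dehydrogenase list, of which 5 of 11 were higher over both sexes, 4 in males and 10 in females, and Pcx, pyruvate carboxylase, over both sexes (0.25, adjusted p = 0.164) for the biotin list, of which 4 of 5 were higher. Of the 13 genes of the sister complexes, 11 were higher in hAPOE4 mice over both sexes and 1 passed.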

How the data were processed

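The authors sequenced polyA libraries of hippocampal RNA from 20 mice, quantified them against mouse cDNA (Salmon 0.91) and brought the estimates to gene level (tximport). Their deposited estimated counts are whole numbers and were used as they stand. A further table of normalized counts, a signal that the authors obtained through DESeq2, scales each gene by mouse-specific factors that were not retraced here, and served as an alternative only. Columns carry mouse names, and 0 were left out. P-values measure the spread between these mice. No library was a copy of another (190 pairs, chi-square per degree of freedom at least 9.16). There were 35778879 to 52520279 counts per mouse and at least 500 for a member. Counting error was not set against the spread between mice, which was as low as 3.09% (SD over mean) for Bckdk in hAPOE3 females.

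The test was the quasi-likelihood F-test of edgeR 4.0.16 (R 4.3.3) with TMM scaling, filterByExpr by group (21724 of 33119 genes kept), 1 mean per group, and Benjamini-Hochberg adjustment over all genes tested at 0.05. Intervals (95%) were derived from that test. Log2 CPM used a prior count of 2. Ratios of members (count + 0.5, log2 scale) were compared by two-sided exact permutation, and correlations by 100000 permutations (scipy 1.17.1 for the 15 mice). DESeq2 1.42.0, limma 3.58.1 (on log2 of the authors' normalized count + 1), other scalings, filters and covariates and the removal of each mouse were alternatives. The slopes, their use as covariates, their removal from members and the removal of 5 hAPOE3 mice were added after the data were seen. The edgeR test was run on simulated counts whose planted differences, in hAPOE4 males only, were larger than that of any member. That run says nothing of power at the sizes reported here.

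The members, the pathway lists and the marker lists (neurons, astrocytes, oligodendrocytes, microglia, endothelium, choroid plexus, oocyte, nuclear oxidative phosphorylation) were chosen with earlier results of these data known. Named genes were all members, Apoe, listed pathway genes past the threshold, else the gene of each list with the smallest p, and the gene most correlated with a member, given for 5 of the members. Positions are from GENCODE for GRCm38, promoters from RefSeq. Protein sequences were not used here.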

Additional observations from a re-analysis of the deposited data

Results flagged for a closer look

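In groups of 5 mice, a value was set apart when its gap to the nearest mouse was more than 0.71 of the group's range (Dixon's criterion). Chance sets apart about 1 in 20 groups, and of 52 groups of member levels and ratios 3 were set apart, so 2.6 would be set apart at that rate. Bcat1 was at 152 CPM in the hAPOE4 male S176, against 97.4 CPM in the next mouse. Bcat2 was at 21.1 CPM in the hAPOE4 male S178, against 15.3 CPM in the next. Ivd was at 124 CPM in the hAPOE3 male S158, against 101 CPM in the next. S158 and S176 were also the mice with the highest summed oligodendrocyte markers, and S176 and S178 were among the 4 with oocyte transcripts, and the part of these in the values was not tested. No member differed between the sexes in its genotype difference by the interaction test.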

How the results depend on the processing

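No member was called in 28 of 31 alternatives for the genotype comparison over both sexes, and in all 31 or 32 alternatives of each of the other 6 comparisons. Over both sexes the count of members called was 1 with the Wald test of DESeq2 and 0 to 1 over the fits that left out a mouse, where 1 was called without the hAPOE3 female S144 or the hAPOE3 male S155. In each case that member was Mccc1, whose log2 difference ran from 0.14 to 0.34 and adjusted p from 0.0283 to 0.374. The log2 Bcat1/Bcat2 difference in females was 0.30 on the authors' normalized counts (exact permutation test, adjusted p = 0.286) against 0.11 on counts, and the cause was not tested. Without the 5 hAPOE3 mice with high nuclear oxidative phosphorylation scores, Bckdhb was at 0.23 in males and 0.17 over both sexes, and Mccc2 at 0.08 and 0.09. In that fit S154 and S155 were the only hAPOE3 males, and S144, S145 and S146 the only hAPOE3 females. Of 2210 member estimates under alternatives, 3 were called, 4 lay outside the first 95% interval and 152 changed sign, all with a first size of at most 0.17. Of the ratio estimates 13 changed sign, all with a first size of at most 0.14, and 0 were called.

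The number of genes called over the whole table moved more. It was 6 to 315 for genotype in males, 74 to 347 in females, 96 to 1121 over both sexes, 8 to 25 for sex in hAPOE3, 6 to 275 in hAPOE4, 7 to 216 over both genotypes and 0 to 118 for the interaction. No paired analysis was possible because the mice are different animals and the labels give no number or other link shared between groups, the order within a group being only a name. The members had at least 500 counts in every mouse, whereas 5 mice a group left intervals as wide as -0.29 to 0.62 log2 (Bckdha, interaction).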
